A study of Mus musculus with 16 samples.

Results

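Retinas that had received HDAC5DAD before optic nerve crush were compared with retinas that had received GFP before the same injury, in 7 of the 16 samples of the series: HDAC5DAD replicates 1 to 4 and GFP replicates 2 to 4. They were chosen by their labels, and GFP replicate 1 was not analysed here. Both groups were C57BL/6 mice of around 6 weeks given an adeno-associated virus in the vitreous, the gel of the eye, with the optic nerve crushed 2 weeks later for 3 seconds, around 1 mm from the optic disc, and whole retina taken after 4 days. The groups therefore share strain, age, virus type, crush and time, and differ by the gene carried; the labels give no promoter or serotype, do not say what DAD marks in HDAC5, and give no virus for the 4 Uninjured libraries used as reference level. The title of the series contrasts HDAC5DAD with a further form, HDAC5AA, in the control of genes of axon growth. The labels do not say whether each replicate is another animal; a p-value here reflects variation among these samples, and that variation may be technical.

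HDAC5 is a class IIa histone deacetylase that moves between cytoplasm and nucleus and binds transcription factors of the MEF2 family. Crush cuts the axons of retinal ganglion cells, the output neurons of the retina, which then switch on injury and growth genes and in part die, while Mueller glia and microglia react. Interferon-gamma and other interferons act through transcription factors such as IRF1 on genes with short promoter elements, and their best known targets in mouse include the immunity-related GTPases, the guanylate-binding proteins and the machinery that loads peptides on MHC class I. In whole retina, fewer cells of a type and less RNA per cell cannot be told apart.

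Reads per library ranged from 13879881 in HDAC5DAD replicate 1 to 30972171 in Uninjured replicate 3. Levels below are normalized reads, that is recovered reads divided by 1 scaling factor per library, and fold changes are on the log2(value + 1) scale. Features holding ribosomal RNA sequence took 1.41% to 2.43% of reads in GFP, and 5.64%, 0.572%, 0.104% and 2.31% in HDAC5DAD replicates 1 to 4. HDAC5DAD replicates 2 and 3 thus lay below the other 5 libraries of the comparison, and HDAC5DAD replicate 1 lay above every GFP library. Replicate 4 alone was within the GFP range, so the libraries at or over 1% are not matched in this share. Values from the libraries at or over 1% are given for the called genes named below and for the interferon and MHC class I lists. Gnat1, the transducin subunit of rods, was at 177890 to 207350 normalized reads in the 7 libraries.

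Of 19695 genes tested, 13 were higher and 1 was lower in HDAC5DAD than in GFP at a limma adjusted p under 0.05. Of these 14, 10 belong to the interferon or MHC class I lists. Among them are the immunity-related GTPase genes Igtp, Irgm1, Irgm2 and Iigp1, the guanylate-binding protein gene Gbp7, the transcription factor gene Irf1, and the antigen presentation genes Tap1, Psmb8 and H2-T23. The others are Lsp1, Vcam1 and Sdc4, which rose, and Pclo, which fell. The calls were 0.066% of genes tested for rises and 0.00508% for falls. None of the neuronal, axon growth or glial lists held a called gene, apart from Pclo in the synaptic list. The number of rises rests on single libraries: without GFP replicate 2 no gene passed limma, although 1181 genes were higher at an unadjusted p under 0.05 and the smallest adjusted p was 0.0507. Without HDAC5DAD replicate 4 there were 4 rises, without GFP replicate 4 there were 8, and without HDAC5DAD replicates 1 or 2 there were 27 and 20.

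Other tools on the recovered reads gave more calls. The edgeR quasi-likelihood test called 15 genes higher (0.082% of 18294) and 3 lower (0.0164%), and DESeq2 called 60 higher (0.305%) and 12 lower (0.0609%). All 14 limma genes were among the DESeq2 calls and 13 of them among the edgeR calls, the exception being Irgm2 (edgeR adjusted p = 0.103). At an unadjusted limma p under 0.05, HDAC5DAD was higher for 6.68% of genes and lower for 5.34%. Every HDAC5DAD library lay above every GFP library for 1134 genes (5.76%) and below for 1008 (5.12%).

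The promoters of 6 interferon-linked genes that rose are shown, because this group holds most of the calls; these 6 were picked from the called genes whose window holds 1 of the motifs below. The windows are from RefSeq (GRCm38.p6, the build mm10), 250 bases before to 50 after the annotated start, read 5′ to 3′ on the gene's strand. Capitals mark 2 motifs on either strand: GAAANNGAA, the core of the interferon-stimulated response element bound by IRF factors, and TTCNNNGAA, the gamma-activated site of interferon-gamma targets. Overlapping matches run together.
Igtp (GRCm38, chr11:58199306-58199605, plus strand): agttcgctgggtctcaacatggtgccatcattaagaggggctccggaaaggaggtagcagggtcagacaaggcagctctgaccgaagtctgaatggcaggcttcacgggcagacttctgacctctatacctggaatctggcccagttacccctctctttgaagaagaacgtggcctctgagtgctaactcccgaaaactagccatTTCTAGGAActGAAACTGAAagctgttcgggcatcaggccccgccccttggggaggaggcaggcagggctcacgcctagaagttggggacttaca
Irgm2 (GRCm38, chr11:58214727-58215026, plus strand): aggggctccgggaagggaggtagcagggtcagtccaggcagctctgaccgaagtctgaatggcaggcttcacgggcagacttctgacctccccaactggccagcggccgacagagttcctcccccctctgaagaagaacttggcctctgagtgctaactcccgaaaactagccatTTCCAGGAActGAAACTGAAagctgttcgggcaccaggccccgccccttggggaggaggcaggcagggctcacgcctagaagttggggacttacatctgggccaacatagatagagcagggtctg
Irgm1 (GRCm38, chr11:48871371-48871670, minus strand): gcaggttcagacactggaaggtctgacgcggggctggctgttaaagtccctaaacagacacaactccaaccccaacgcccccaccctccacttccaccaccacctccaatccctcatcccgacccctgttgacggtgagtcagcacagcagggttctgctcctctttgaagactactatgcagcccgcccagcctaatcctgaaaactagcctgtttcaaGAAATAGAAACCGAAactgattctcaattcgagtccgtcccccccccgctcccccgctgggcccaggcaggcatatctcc
Gbp7 (GRCm38, chr3:142530086-142530385, plus strand): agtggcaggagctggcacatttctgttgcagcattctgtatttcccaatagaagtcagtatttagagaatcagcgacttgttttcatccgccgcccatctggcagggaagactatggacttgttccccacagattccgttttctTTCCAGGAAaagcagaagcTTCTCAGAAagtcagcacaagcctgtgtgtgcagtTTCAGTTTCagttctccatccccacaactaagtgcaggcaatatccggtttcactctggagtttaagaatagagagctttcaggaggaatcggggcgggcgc
Irf1 (GRCm38, chr11:53769764-53770063, plus strand): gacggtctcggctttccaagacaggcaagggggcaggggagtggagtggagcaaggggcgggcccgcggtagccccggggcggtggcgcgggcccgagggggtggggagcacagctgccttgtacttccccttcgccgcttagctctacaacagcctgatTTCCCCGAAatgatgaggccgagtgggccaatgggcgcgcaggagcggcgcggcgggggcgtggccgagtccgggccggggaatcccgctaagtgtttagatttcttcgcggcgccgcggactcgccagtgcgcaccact
Psmb8 (GRCm38, chr17:34197945-34198244, plus strand): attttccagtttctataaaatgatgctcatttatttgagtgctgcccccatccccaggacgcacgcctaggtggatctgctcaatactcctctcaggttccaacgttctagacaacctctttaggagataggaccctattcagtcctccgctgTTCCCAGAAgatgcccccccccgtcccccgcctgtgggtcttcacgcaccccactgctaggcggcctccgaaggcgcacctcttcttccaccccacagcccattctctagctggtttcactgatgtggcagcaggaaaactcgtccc

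Igtp and Irgm2 hold both motifs side by side, and their windows share an unbroken run of 61 bases just downstream of them. Irgm1 holds 2 overlapping matches of the response element core, and Gbp7 holds 1 of that core and 2 of the gamma-activated site. Irf1 and Psmb8 hold 1 gamma-activated site each, and a further RefSeq window of Irf1 holds neither motif. Over the 32851 RefSeq mouse promoters of this length, 8.56% held the response element core and 8.30% the gamma-activated site. A window was found for 10 of the 14 called genes, of which 5 held the former and 5 the latter; Tap1, Sdc4 and Pclo held neither. Of the interferon and MHC class I list genes with a window, 28 and 12 of 53 held them. A match describes letters in a window and does not show binding.

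Hdac5 (ENSMUSG00000008855, chromosome 11, 102194432 to 102230166, minus strand), the gene of the deacetylase carried by the virus, was at 6906, 6965 and 7024 normalized reads in GFP replicates 2 to 4. In HDAC5DAD replicates 1 to 4 it was at 9082, 7864, 7949 and 8865. Every HDAC5DAD library lay above every GFP library, and the uninjured libraries (6944 to 7340.2) lay below every HDAC5DAD library. It had a log2 difference of 0.27 (SE 0.056; limma, Benjamini-Hochberg adjusted p = 0.0702), which did not pass; edgeR gave 0.0887 and DESeq2, which called it, 0.00154. Within the libraries at or above 1% ribosomal RNA it was 0.36 and passed (limma adjusted p = 0.0111). Without HDAC5DAD replicate 2 it was 0.31 and passed too (limma adjusted p = 0.0249). The construct sequence was not used here, so whether and how far reads of the virus transcript are counted in this level was not tested.

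**Figure D1:**
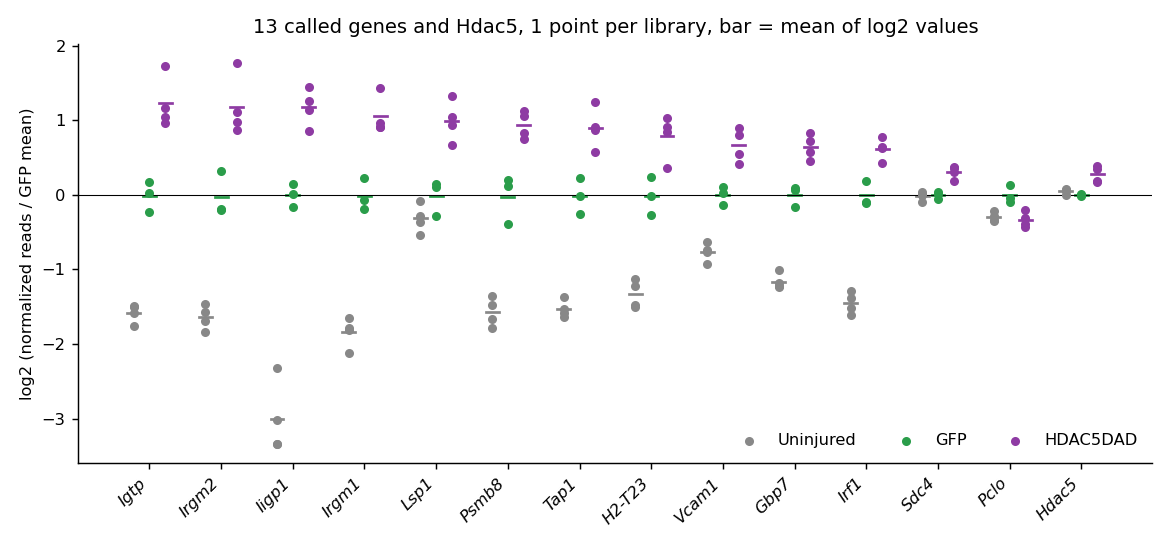
Each point is 1 library's normalized reads for a gene, as log2 of the ratio to the GFP mean of that gene, for 13 called genes and Hdac5; bars are means of the log2 values of Uninjured (grey, n = 4), GFP (green, n = 3) and HDAC5DAD (purple, n = 4). For each gene shown the HDAC5DAD and GFP points do not overlap, and for the interferon-linked genes the uninjured points lie lowest.

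The largest differences among the called genes were in the immunity-related GTPases, interferon-induced proteins that attack membranes around intracellular microbes. Igtp (ENSMUSG00000078853, chromosome 11, 58199556 to 58207591, plus strand), also called Irgm3, a regulatory member, was at 199, 264 and 237 normalized reads in GFP and 521, 457, 482 and 771 in HDAC5DAD. HDAC5DAD replicate 4 held the highest value, with the other 3 close together and all above GFP. The group means were 233 ± 32.8 (SD, n = 3) and 558 ± 145 (SD, n = 4), with a log2 difference of 1.23 (SE 0.15, limma, Benjamini-Hochberg adjusted p = 0.00262). That fit includes the Uninjured libraries. Without any of them the difference in Igtp was 1.23 and did not pass (limma adjusted p = 0.111). Irgm1 (ENSMUSG00000046879, chromosome 11, 48861968 to 48871683, minus strand), a regulatory member that also acts in autophagy, was at 258, 344 and 280.2 in GFP and 551, 576, 551 and 798 in HDAC5DAD. Replicate 4 was again the highest, and the change was 1.06 (SE 0.14, limma adjusted p = 0.00262). Irgm2 (ENSMUSG00000069874, chromosome 11, 58199618 to 58222782, plus strand) was at 149.8, 217 and 152 and 339.9, 315, 375 and 589, a change of 1.20 (SE 0.19, limma adjusted p = 0.0174). Iigp1 (ENSMUSG00000054072), an effector member loaded onto the microbial vacuole, was at 108, 87.2 and 98.7 and 234, 215, 178 and 267, a change of 1.17 (SE 0.20, limma adjusted p = 0.0174). Igtp and Irgm2 overlap on the same strand in the annotation and the family is made of close relatives, so the split of reads between them is uncertain.

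In the GFP retinas these genes were already above the uninjured level. Iigp1 was at 12.1, 9.69, 9.69 and 19.7 in the uninjured libraries, and its log2 fold change against them was 2.89 in GFP and 4.06 in HDAC5DAD. For Irgm1 these were 1.82 and 2.88, from uninjured levels of 93.4, 85.5, 83.9 and 67.7. All 4 differences passed limma. Both contrasts share the uninjured libraries and are given side by side only. Of the 6 family members measured, 4 passed against GFP and the libraries did not overlap for all 6, with a median of 1.14 and a range of 0.97 (Ifi47) to 1.23 (Igtp). Over all genes 0.066% were called higher, and 5.76% had every HDAC5DAD library above GFP. The family was grouped after the values were seen. Ifi47, singled out after its values were seen, was at 41.8, 52.6 and 42.0 in GFP and 73.4, 92.7, 89.7 and 106 in HDAC5DAD. It passed edgeR (adjusted p = 0.0198) and DESeq2 (adjusted p = 0.00518) and missed limma (adjusted p = 0.0971). Within the libraries at or above 1% ribosomal RNA the median of the 6 was 1.32. There Igtp was 1.45 (limma adjusted p = 0.000807), Iigp1 was 1.34 (limma adjusted p = 0.00746) and Irgm1 was 1.18 (limma adjusted p = 0.0461). Irgm2 lost its call there, at 1.39 (limma adjusted p = 0.0721).

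The guanylate-binding proteins, GTPases that coat pathogens and their vacuoles, were higher to a lesser degree. Gbp7 (ENSMUSG00000040253, chromosome 3, 142530342 to 142550149, plus strand) was at 261, 304 and 309.6 normalized reads in GFP and 398, 517, 433 and 483 in HDAC5DAD, with a log2 difference of 0.65 (SE 0.10; limma, Benjamini-Hochberg adjusted p = 0.00795). It was 0.59 (limma adjusted p = 0.0896) and did not pass within the libraries at or above 1% ribosomal RNA. Gbp7 was the member of the list that passed in all libraries, and it had the smallest difference of the 5 on the list. HDAC5DAD libraries lay above all GFP libraries for each of the 5, beside 5.76% of all genes. The median of the 5 was 0.74 and the largest difference, 0.93, was that of Gbp6 (limma adjusted p = 0.229). Gbp2, the most abundant of them, was at 399, 607 and 377 and 797, 837, 768 and 933, a difference of 0.88 (SE 0.19, limma adjusted p = 0.150) that did not pass. Gbp3 was 0.73 (SE 0.16, limma adjusted p = 0.122) and Gbp4 0.74 (SE 0.24, limma adjusted p = 0.297). Gbp9, which is not on the list, was 0.70 (SE 0.15, limma adjusted p = 0.0916) and passed edgeR (adjusted p = 0.0219). DESeq2 called Gbp2, Gbp3, Gbp4 and Gbp9 (DESeq2 adjusted p = 0.0125, 0.00153, 0.0154 and 0.000312) and did not call Gbp6 (0.0812). Gbp2, Gbp3, Gbp4, Gbp6 and Gbp9 were singled out after their values were seen, and as near relatives in gene clusters they may share reads.

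A transcription factor of the pathway also rose. Irf1 (ENSMUSG00000018899, chromosome 11, 53770014 to 53778374, plus strand), itself induced by interferon-gamma and an activator of interferon genes, was at 349, 422 and 345 normalized reads in GFP and 574, 498, 579 and 634 in HDAC5DAD, and at 121, 152, 129.8 and 143 in uninjured retina. Every HDAC5DAD library was above every GFP library, and HDAC5DAD replicate 2 was the lowest of its group. It had a log2 difference of 0.62 (SE 0.10, limma, Benjamini-Hochberg adjusted p = 0.0109). Within the libraries at or above 1% ribosomal RNA it was 0.70 and passed (limma adjusted p = 0.0181).

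The antiviral effectors and sensors best known from type I interferon had smaller differences. Among them (Ifit1 to Ifit3, Isg15, the Oas and Mx genes, Rsad2, Usp18, Ifi44, Ifih1 and Ddx58) none of 16 passed limma (2 higher and 0 lower at an unadjusted p under 0.05), 0 passed edgeR and 0 DESeq2. Their median was 0.21, from 0.015 (Mx2) to 0.90 (Oas3), and 1 of them had every HDAC5DAD library above GFP, beside 5.76% of all genes. Within the libraries at or above 1% ribosomal RNA their median was -0.028, the opposite sign. Ifit1, which binds foreign RNA, was at 288, 299 and 227 normalized reads in GFP and 192, 716, 254 and 269 in HDAC5DAD, where replicate 2 alone lay above GFP. Isg15, a ubiquitin-like modifier, was at 34.0, 40.3 and 32.9 and 28.5, 65.2, 25.6 and 38.8, and again replicate 2 was the only library above all of GFP. The grouping into families, and Ifit1, Isg15, Mx2 and Oas3, were chosen after the values were seen, and no test compared the families with each other.

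Over the whole interferon list, 7 of 49 measured genes rose and none fell, 48 had a log2 fold change above 0, and the median was 0.41, beside 0.00094 over all genes. The edgeR test called 7 of the list higher and DESeq2 called 12, beside 0.082% and 0.305% of all genes tested. The libraries did not overlap, with HDAC5DAD above, for 20 of them (40.8%), beside 5.76% of all genes. Their summed level was 5392 to 5944 normalized reads in Uninjured, 10379 to 12113 in GFP and 13105 to 18169 in HDAC5DAD, and the groups did not overlap. Within the libraries at or above 1% ribosomal RNA the list median was 0.28, and over all settings it ran from 0.28 to 0.54.

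Genes that cut, carry and present peptides on MHC class I formed the other group. Tap1 (ENSMUSG00000037321, chromosome 17, 34187553 to 34197225, plus strand), a subunit of the peptide transporter of the endoplasmic reticulum, was at 197, 275 and 231 normalized reads in GFP and 428, 349, 439 and 556 in HDAC5DAD, with a log2 difference of 0.91 (SE 0.14; limma, Benjamini-Hochberg adjusted p = 0.00746). Psmb8 (ENSMUSG00000024338, chromosome 17, 34197721 to 34201454, plus strand), a catalytic subunit of the immunoproteasome, was at 111, 168 and 158 in GFP and 244, 258, 303 and 318 in HDAC5DAD, a change of 0.96 (SE 0.15, limma adjusted p = 0.00746). Both passed within the libraries at or above 1% ribosomal RNA. There Tap1 was 1.07 (limma adjusted p = 0.00703) and Psmb8 0.95 (limma adjusted p = 0.0461). H2-T23 (ENSMUSG00000067212, chromosome 17, 36029773 to 36032855, minus strand), a nonclassical class I gene whose product Qa-1 is read by natural killer cells, was at 140.2, 198 and 167 and 216, 344, 302 and 318, a change of 0.80 (SE 0.15, limma adjusted p = 0.0493), near the threshold. HDAC5DAD replicate 1 was the lowest of its group for H2-T23 and lay just above the highest GFP library, and within the libraries at or above 1% ribosomal RNA the gene was 0.65 (limma adjusted p = 0.358) and did not pass.

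Of the 20 genes on the MHC class I list, 3 rose, all 20 had a log2 fold change above 0, and for 13 the libraries did not overlap, beside 0.066% called higher and 5.76% not overlapping over all genes. The edgeR test called 3 of the list higher and DESeq2 called 8, beside 0.082% and 0.305% of all genes tested. The summed level was 4674 to 4965 normalized reads in Uninjured, 7981 to 10351 in GFP and 11356 to 15518 in HDAC5DAD. The median was 0.58, from 0.43 to 0.69 over all settings, and 0.60 within the libraries at or above 1% ribosomal RNA. Members that missed the limma threshold, singled out after their values were seen, included Psmb9, the immunoproteasome subunit next to Tap1, at 1.00 (SE 0.23, limma adjusted p = 0.122). The classical class I gene H2-D1 was at 1111, 1496 and 1532 in GFP and 1869, 1720.1, 2298 and 2157 in HDAC5DAD, and H2-K1 at 1300.2, 1675 and 1794 and 2474, 1849.8, 3378 and 3132; neither passed limma (adjusted p = 0.123 and 0.292), and both passed DESeq2 (0.000415 and 0.0471). Nlrc5, the transactivator of class I genes, was 0.85 (SE 0.20, limma adjusted p = 0.122), and B2m, the light chain, 0.56 (SE 0.21, limma adjusted p = 0.377). DESeq2 called Psmb9 and Nlrc5 (DESeq2 adjusted p = 0.00191 and 0.0040) and did not call B2m (0.236). Class I genes are near-identical in parts, so reads may be split unevenly among them.

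**Figure D2:**
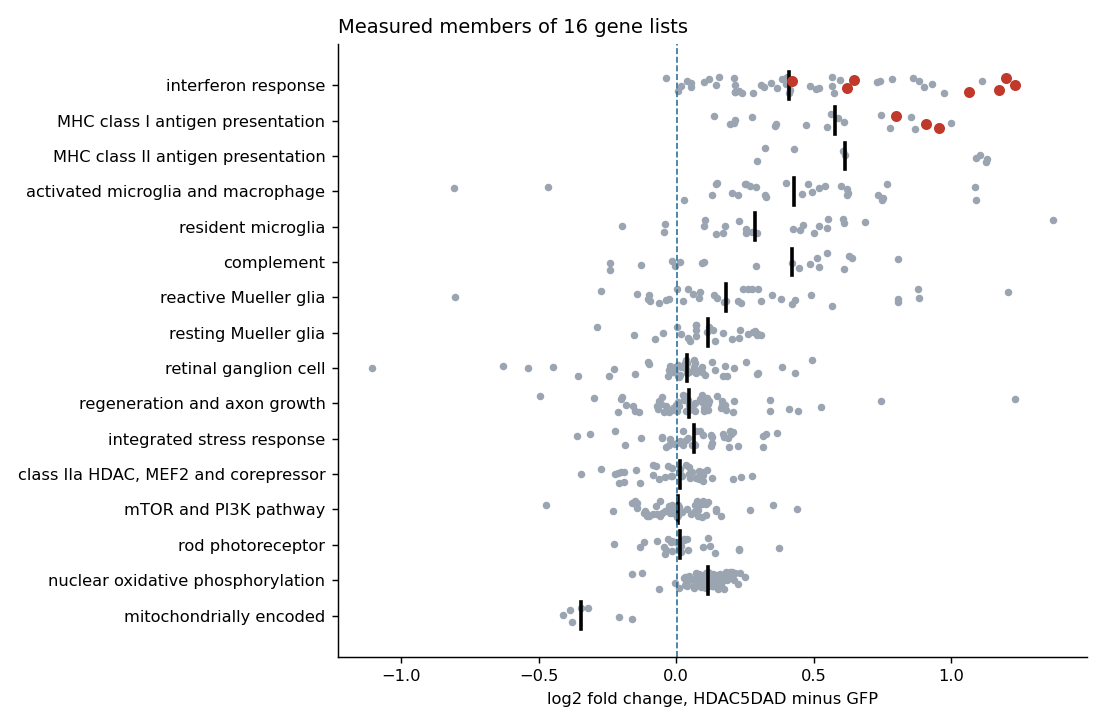
Each point is a measured gene of 1 of 16 lists, placed by its log2 fold change of HDAC5DAD over GFP; red points passed limma, black bars are list medians and the dashed line is the median of all genes. Red points lie in the interferon list and in the list for MHC class I, and the medians of the neuronal, HDAC and mTOR lists lie close to the dashed line.

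The other 3 rises were outside these lists. Vcam1 (ENSMUSG00000027962, chromosome 3, 116109949 to 116129688, minus strand), an adhesion molecule that binds leukocyte integrins, was at 450.2, 479 and 403 normalized reads in GFP and 591, 648, 829 and 772 in HDAC5DAD, with a log2 difference of 0.67 (SE 0.10, limma, Benjamini-Hochberg adjusted p = 0.00746). Within the libraries at or above 1% ribosomal RNA it was 0.61 and passed (limma adjusted p = 0.0459). Lsp1 (ENSMUSG00000018819, chromosome 7, 142460809 to 142494867, plus strand), an actin-binding protein of leukocytes, was at 70.5, 53.7 and 72.6 in GFP, 126, 105, 165 and 136 in HDAC5DAD and 50.9, 53.7, 45.2 and 62.3 in uninjured retina. GFP and uninjured libraries overlapped for Lsp1, and the change was 1.00 (SE 0.17, limma adjusted p = 0.0116), and 0.99 (limma adjusted p = 0.0533) within the libraries at or above 1% ribosomal RNA, past the threshold there no longer. Sdc4 (ENSMUSG00000017009, chromosome 2, 164424247 to 164443887, minus strand), a cell surface heparan sulfate proteoglycan, was named after its values were seen, as the smallest of the rises. It was at 1846, 1937 and 1959 in GFP and 2183, 2469, 2476 and 2372 in HDAC5DAD, a change of 0.31 (SE 0.058, limma adjusted p = 0.0332), with uninjured libraries (1800 to 1962) at the level of GFP. It was 0.25 (limma adjusted p = 0.297) and did not pass within the libraries at or above 1% ribosomal RNA.

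Immune cell markers, given for the whole lists beside these rises, held no called gene in the following 4 lists. For resident microglia, none of 24 passed limma (9 higher and 0 lower at an unadjusted p under 0.05), 0 passed edgeR and 0 DESeq2. All 24 listed genes were measured, 21 were above 0 with a median of 0.28, and their summed level was 4549.6 to 6233 normalized reads in GFP and 6060 to 8791 in HDAC5DAD. For activated microglia and macrophages, none of 30 passed limma (4 higher and 0 lower at an unadjusted p under 0.05), 0 passed edgeR and 0 DESeq2. Of 35 listed genes Ccl3, Ccl4, Tnf, Cd163 and F13a1 were not analysed here, 28 were above 0 with a median of 0.43, and the sums were 3116 to 5599 and 4147 to 6948. For MHC class II, none of 9 passed limma (1 higher and 0 lower at an unadjusted p under 0.05), 0 passed edgeR and 0 DESeq2. H2-Oa and H2-Ob of the 11 listed were not analysed here, all 9 measured were above 0 with a median of 0.61, and the sums were 1547 to 3484 and 2149 to 7119. For complement, none of 19 passed limma (6 higher and 0 lower at an unadjusted p under 0.05), 0 passed edgeR and 0 DESeq2, and the median was 0.42. The ranges of the 3 sums overlapped between the groups. HDAC5DAD lay above GFP without overlap for 16.7%, 10.0%, 11.1% and 10.5% of the genes of these lists in turn, beside 5.76% of all genes. It lay below for 0% of each list, beside 5.12%. At an unadjusted limma p under 0.05, 6.68% of all genes were higher and 5.34% lower. Over all settings the microglia median ran from 0.21 to 0.39 and the macrophage median from 0.17 to 0.62. What these cells contribute to the interferon and antigen presentation results was not tested.

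Single genes of those cells had wide spread. Ctss, the cathepsin of antigen-presenting cells, was at 765, 1091 and 932 normalized reads in GFP and 1177, 1099, 1806 and 1642 in HDAC5DAD, and C1qa, a complement subunit made by microglia, at 468, 682 and 573 and 692, 764, 1060.1 and 1007. The libraries did not overlap for either, and neither passed (limma adjusted p = 0.313 and 0.261). Cd74, the class II invariant chain, was at 199, 749 and 463 and 857, 273, 1792 and 1393, and Axl, a receptor for dying cells, was 0.22 (SE 0.12, limma adjusted p = 0.486). Mmp12, the macrophage elastase, was at 585, 534 and 592 in GFP and 644, 749, 734 and 666 in HDAC5DAD against 0 to 5.81 in uninjured retina. Its HDAC5DAD libraries all lay above GFP, and it passed no test (limma adjusted p = 0.892, edgeR 0.262, DESeq2 0.127). The limma difference was 0.29 (SE 0.60), and that SE also takes in the spread of the uninjured values near 0. Cst7, a cystatin of activated microglia, and C1qa were singled out after their values were seen; Cst7 was 1.09 (SE 0.27, limma adjusted p = 0.150).

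**Figure D3:**
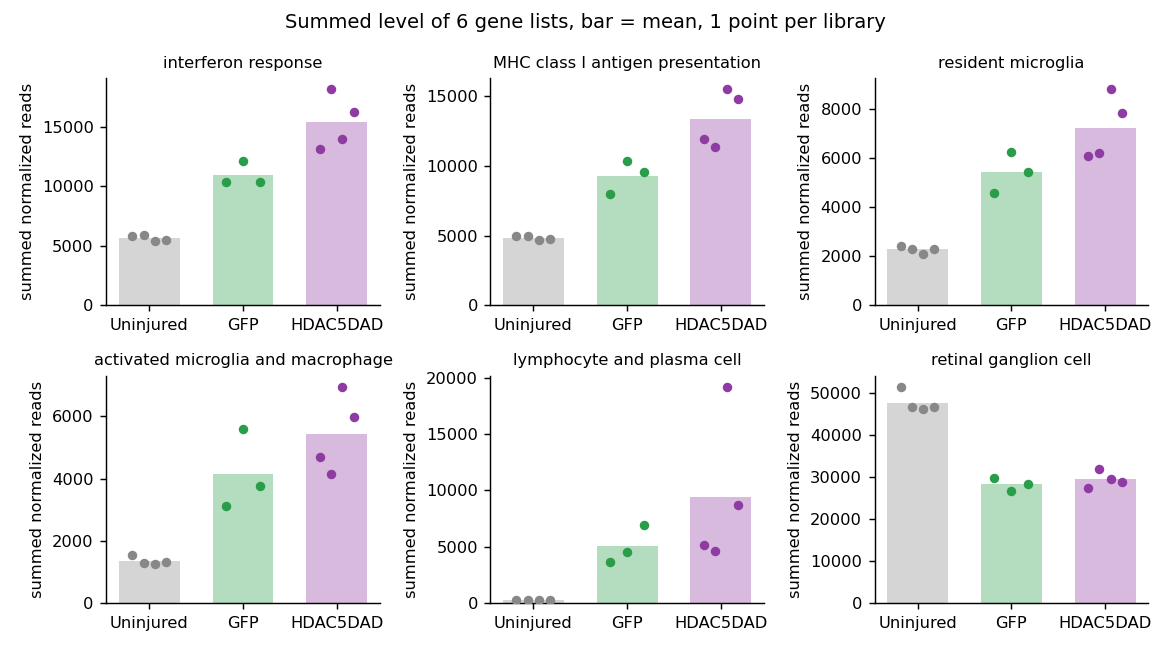
Summed normalized reads of 6 gene lists in each library of Uninjured (grey), GFP (green) and HDAC5DAD (purple), 1 panel per list, with bars at the group means and axes from 0. HDAC5DAD and GFP points are separate for interferon and for MHC class I genes and overlap for the microglia, macrophage, lymphocyte and ganglion cell lists.

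Of 30 lymphocyte and plasma cell genes 14 were in the joined tables, all 14 with a log2 fold change above 0 and a median of 0.58. In this list none of 14 passed limma (2 higher and 0 lower at an unadjusted p under 0.05), 1 passed edgeR and 1 DESeq2, in each case Ighg1. The T cell receptor genes Cd3e, Cd3d, Cd3g, Trac, Trbc1 and Trbc2, Cd8a and the B cell gene Ms4a1 were not analysed here. The summed level of the 14 was 232 to 269 normalized reads in Uninjured, 3597 to 6961 in GFP and 4610.3 to 19203 in HDAC5DAD. Ighg1 (ENSMUSG00000076614, chromosome 12, 113325240 to 113330523, minus strand), the constant region of IgG1 heavy chain, singled out after its values were seen, was at 1.74, 4.47 and 34.0 in GFP and 389, 593, 1387 and 1169 in HDAC5DAD, beside 2.43, 1.76, 0.646 and 0 in uninjured retina. The HDAC5DAD libraries all lay over the highest GFP library, GFP replicate 4. It had a log2 difference of 6.60 (SE 0.90; limma, Benjamini-Hochberg adjusted p = 0.0702), which did not pass, while edgeR (0.0434) and DESeq2 (1.48e-06) called it.

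Other antibody genes did not separate the injured groups. Ighg2c, the constant region of another IgG class, was at 539, 859.9 and 1881 normalized reads in GFP and 549.5, 916, 2699.6 and 1358 in HDAC5DAD, and Igkc, the kappa light chain, at 922, 1128 and 1737 and 1134, 1212, 4866 and 2106. The groups overlapped for both, at limma adjusted p = 0.895 and 0.656. Ighm, Igha and Ighg2b, the constant regions of IgM, IgA and a further IgG class, were 0.62 (SE 0.64, limma adjusted p = 0.742), 0.96 (SE 0.75, limma adjusted p = 0.650) and 0.52 (SE 0.69, limma adjusted p = 0.816). Jchain, which joins antibody units in IgM and IgA, was 0.55 (SE 0.36, limma adjusted p = 0.589). Cd4, a receptor of helper T cells and some myeloid cells and not an antibody gene, was 1.06 (SE 0.32, limma adjusted p = 0.252). Its libraries did not overlap, at 18.1 to 20.1 in GFP and 21.2 to 74.2 in HDAC5DAD. Ighm, Igha, Ighg2b, Jchain and Cd4 were singled out after their values were seen. HDAC5DAD replicate 3 had the highest level of Igkc, Ighm, Igha and Ighg2b in the comparison. Antibody constant regions resemble each other, so reads may be split among them.

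**Figure D4:**
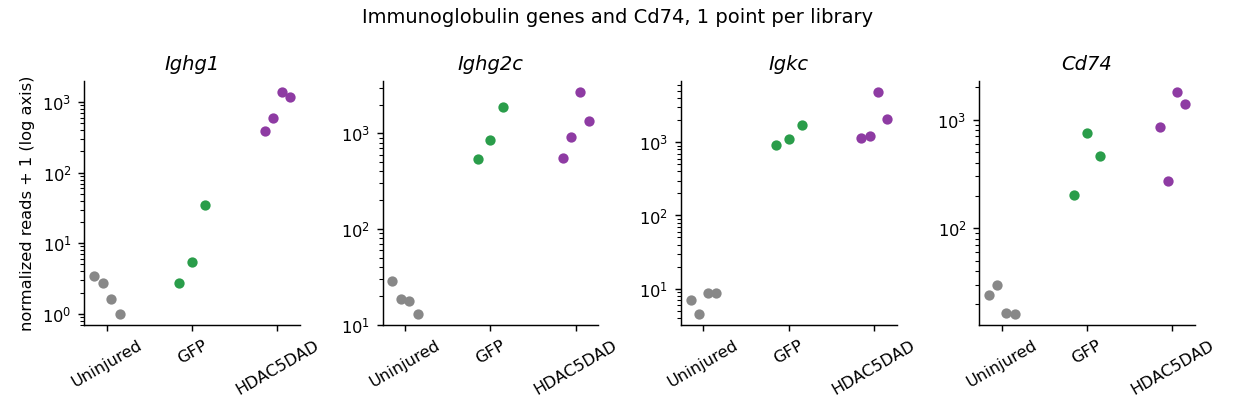
Normalized reads plus 1, on a log axis, of Ighg1, Ighg2c, Igkc and Cd74 in each library of Uninjured (grey), GFP (green) and HDAC5DAD (purple). Ighg1 separates HDAC5DAD from GFP, and the other 3 genes overlap between these groups.

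Ganglion cell markers were below the uninjured level in both injured groups and gave no call between them. Among them none of 49 passed limma (4 higher and 2 lower at an unadjusted p under 0.05), 0 passed edgeR and 0 DESeq2, and the median was 0.038. Against Uninjured the medians were -0.87 in GFP, with 35 genes lower, and -0.78 in HDAC5DAD, with 39 lower, beside 5.74% and 5.84% of all genes. Rbpms, an RNA-binding protein of ganglion cells, was at 195, 174 and 161 normalized reads in GFP and 165, 197, 173 and 181 in HDAC5DAD, against 370.4 ± 22.4 (SD, n = 4) in uninjured retina. Pou4f1, a transcription factor that maintains these neurons, was at 213, 177 and 167 and 186, 237, 215 and 221, a difference of 0.21 (SE 0.10, limma adjusted p = 0.404). Pou4f2, which specifies them, was -0.23 (SE 0.21, limma adjusted p = 0.693), and Sncg, gamma-synuclein, 0.17 (SE 0.094, limma adjusted p = 0.484). The neurofilament gene Nefl was 0.18 (SE 0.070, limma adjusted p = 0.333) and the calcium-binding protein gene Calb2 0.13 (SE 0.071, limma adjusted p = 0.478). The median half-width of the 95% interval over all genes was 0.23 on the log2 scale, without adjustment for the number of genes. Differences below that size could reach an unadjusted limma p under 0.05 only in genes with a narrower interval. Larger ones could also miss the adjusted threshold, as Hdac5 did at 0.27 (limma adjusted p = 0.0702).

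No axon growth gene passed limma or edgeR either. Of the regeneration and axon growth list none of 61 passed limma (5 higher and 4 lower at an unadjusted p under 0.05), 0 passed edgeR and 1 DESeq2, and the median was 0.045. Against Uninjured, 29 were higher in GFP and 29 in HDAC5DAD, beside 5.6% and 7.68% of all genes. Atf3, an injury transcription factor, was at 1450, 1218 and 1330.5 normalized reads in GFP and 1298, 1451, 1234 and 1206 in HDAC5DAD, against 196, 181, 221 and 172 in uninjured retina, and its difference was -0.039 (SE 0.087, limma adjusted p = 0.898). Sox11, a growth-promoting factor, was 0.16 (SE 0.16, limma adjusted p = 0.716), Sprr1a, a protein of regenerating axons, 0.44 (SE 0.35, limma adjusted p = 0.638), and Gap43, a growth cone protein, 0.093 (SE 0.13, limma adjusted p = 0.816). Stat3, which carries cytokine signals, was 0.0035 (SE 0.063, limma adjusted p = 0.989), Map1b, a microtubule-binding protein, -0.21 (SE 0.069, limma adjusted p = 0.296), and Ncam1, an adhesion molecule, -0.067 (SE 0.061, limma adjusted p = 0.689). Ecel1, an endopeptidase induced in damaged neurons, was at 1591, 1361 and 1530.1 in GFP and 1707, 2169, 1947 and 1768 in HDAC5DAD. Its libraries did not overlap; limma gave 0.34 (SE 0.12, limma adjusted p = 0.313) and DESeq2 called it (adjusted p = 0.0361).

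The partners of HDAC5 showed no called change. Of the class IIa HDAC, MEF2 and corepressor genes none of 39 passed limma (2 higher and 5 lower at an unadjusted p under 0.05), 0 passed edgeR and 1 DESeq2, which was Hdac5 itself, and the median was 0.013. Mef2a was -0.015 (SE 0.062, limma adjusted p = 0.948), Mef2c -0.018 (SE 0.064, limma adjusted p = 0.939) and Mef2d -0.22 (SE 0.084, limma adjusted p = 0.351); these are MEF2 factors that class IIa enzymes repress. The class IIa genes Hdac4 and Hdac9 were 0.077 (SE 0.066, limma adjusted p = 0.672) and -0.15 (SE 0.078, limma adjusted p = 0.460), and Camk2d, a kinase of the family that sends class IIa enzymes out of the nucleus, -0.085 (SE 0.052, limma adjusted p = 0.518). Of the mTOR and PI3K genes none of 54 passed limma (4 higher and 5 lower at an unadjusted p under 0.05), 0 passed edgeR and 0 DESeq2, with a median of 0.0059, and within the libraries at or above 1% ribosomal RNA -0.030. Mtor, the kinase at the centre of growth control, was at 3628, 3671 and 3777 normalized reads in GFP and 3688, 3593, 3493 and 3419 in HDAC5DAD, a difference of -0.058 (SE 0.057, limma adjusted p = 0.717). Eif4b, a translation factor downstream of it, was 0.069 (SE 0.061, limma adjusted p = 0.679).

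Stress and death genes had medians near that of all genes. Of the integrated stress response genes none of 40 passed limma (6 higher and 4 lower at an unadjusted p under 0.05), 0 passed edgeR and 3 DESeq2; the median was 0.065, with Atf4, its main factor, at 0.013 (SE 0.12, limma adjusted p = 0.980) and Vldlr, a lipoprotein receptor, at -0.022 (SE 0.051, limma adjusted p = 0.901). DESeq2 called Hspa5 and Psat1 higher and Slc7a1 lower among them; in limma these were 0.31 (SE 0.065, limma adjusted p = 0.0743), 0.33 (SE 0.077, limma adjusted p = 0.122) and -0.36 (SE 0.087, limma adjusted p = 0.129). Of the DLK, JNK and cell death genes none of 31 passed limma (1 higher and 0 lower at an unadjusted p under 0.05), 0 passed edgeR and 1 DESeq2; the median was 0.044, with Ccng1, a p53 target, at 0.10 (SE 0.069, limma adjusted p = 0.569) and Mapk9, a JNK kinase, at 0.020 (SE 0.058, limma adjusted p = 0.923). Immediate early genes had a median of 0.062, with Btg2 at 0.13 (SE 0.12, limma adjusted p = 0.710) and Jund at 0.13 (SE 0.064, limma adjusted p = 0.439).

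Mueller glia, the radial glia of the retina, had small differences. Of the reactive genes none of 37 passed limma (4 higher and 2 lower at an unadjusted p under 0.05), 0 passed edgeR and 1 DESeq2, with a median of 0.18. Gfap, the intermediate filament of reactive glia, was at 1312, 1662 and 1189.8 normalized reads in GFP and 1322, 2027, 1709 and 1519 in HDAC5DAD. Vim, another filament gene, was 0.060 (SE 0.066, limma adjusted p = 0.754), Cp, ceruloplasmin, 0.30 (SE 0.12, limma adjusted p = 0.384), and C4b, a complement component, 0.42 (SE 0.28, limma adjusted p = 0.585). Of the resting genes none of 26 passed limma (9 higher and 0 lower at an unadjusted p under 0.05), 0 passed edgeR and 2 DESeq2; 22 were above 0 and the median was 0.12, 0.011 within the libraries at or above 1% ribosomal RNA. Dkk3, a secreted Wnt modulator, was at 16732, 15985 and 17041 in GFP and 18297, 20726, 21948 and 20055 in HDAC5DAD, with groups that did not overlap; limma gave 0.29 (SE 0.059, limma adjusted p = 0.0718) and DESeq2 called it (adjusted p = 0.00206). Glul, glutamine synthetase, was 0.11 (SE 0.070, limma adjusted p = 0.529), and Aqp4, a water channel, 0.23 (SE 0.094, limma adjusted p = 0.381); 14 astrocyte and optic nerve glia genes had a median of 0.038.

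Lists of the other retinal neurons had medians near 0 and no call by limma or edgeR, although 2 to 5 genes per list were higher and 0 to 4 lower at an unadjusted p under 0.05; DESeq2 called 1 rod gene. Rods had 0.012, with the transducin gene Gnat1 at -0.036 (SE 0.066, limma adjusted p = 0.872). Cones had 0.094, with the short-wavelength opsin Opn1sw at 0.16 (SE 0.058, limma adjusted p = 0.314), the G protein subunit Gnb3 at 0.17 (SE 0.071, limma adjusted p = 0.376) and the opsin kinase Grk1 at 0.030 (SE 0.054, limma adjusted p = 0.869). Bipolar cells had 0.066, with the channel Trpm1 at 0.017 (SE 0.054, limma adjusted p = 0.930) and the kinase Prkca at -0.014 (SE 0.061, limma adjusted p = 0.953). Amacrine cells had 0.0052, with the factor Pax6 at 0.034 (SE 0.065, limma adjusted p = 0.879). Horizontal cells had 0.072, with the anion exchanger Slc4a3 at 0.11 (SE 0.057, limma adjusted p = 0.455) and the septin Sept4 at 0.15 (SE 0.055, limma adjusted p = 0.331).

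Tissues that can be carried along in a dissected retina showed wide spread between libraries. Pigment epithelium and melanocyte genes summed to 12122 to 16687 normalized reads in GFP and 11632 to 15314 in HDAC5DAD, with a median of -0.20. Dct, a melanin enzyme singled out after its values were seen, was at 127, 644 and 146 in GFP, where replicate 3 was far above the others, and 100.3, 134, 59.5 and 73.3 in HDAC5DAD; Trpm3 and Rlbp1 of the same list were -0.00052 (SE 0.066, limma adjusted p = 0.999) and 0.070 (SE 0.065, limma adjusted p = 0.696). Lens genes summed to 597 to 2713 and 517 to 1138, with 13 of 26 measured and a median of -0.31 that ran from -1.10 to 0.41 over all settings. Cryaa, a lens crystallin, was at 756, 0 and 56.7 in GFP and 5.99, 200.4, 12.8 and 114 in HDAC5DAD, so that GFP held both its highest and its lowest value; Cryab was -0.10 (SE 0.11, limma adjusted p = 0.752). Ciliary body, iris and cornea genes had a median of -0.12, with the pump subunit Atp1b2 at -0.14 (SE 0.12, limma adjusted p = 0.668) and the water channel Aqp1 at 0.10 (SE 0.066, limma adjusted p = 0.560). Vascular genes had a median of -0.0026, with Vtn, vitronectin, at -0.011 (SE 0.056, limma adjusted p = 0.959) and the VEGF receptor Kdr at -0.028 (SE 0.087, limma adjusted p = 0.932). The 7 blood genes had a median of 0.31, with the globin Hbb-bs at 0.43 (SE 0.34, limma adjusted p = 0.658) and the heme enzyme Alas2 at -0.023 (SE 0.14, limma adjusted p = 0.964). No gene of these lists passed limma, edgeR or DESeq2, and 0 to 1 genes per list were higher and 0 lower at an unadjusted p under 0.05.

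The single fall was a synaptic gene. Pclo (ENSMUSG00000061601, chromosome 5, 14514918 to 14863459, plus strand), piccolo, a very large scaffold protein of the presynaptic active zone, was at 4342, 5097 and 4512 normalized reads in GFP and 4029.5, 3436, 3556 and 3767 in HDAC5DAD, and at 3642, 4008, 3699 and 3819 in uninjured retina. HDAC5DAD and uninjured libraries overlapped, and the GFP libraries were the highest. It had a log2 difference of -0.33 (SE 0.064; limma, Benjamini-Hochberg adjusted p = 0.0495), close to the threshold, and within the libraries at or above 1% ribosomal RNA -0.25 (limma adjusted p = 0.358). It was the only call among 28 synaptic genes, and the list median was 0.019.

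Further genes were lower without passing limma. Mbd5, a methyl-CpG-binding domain protein gene, passed edgeR (adjusted p = 0.0328) at 1468, 1440.2 and 1306 normalized reads in GFP and 1165, 1161, 1133 and 1135 in HDAC5DAD, with a limma value of -0.29 (SE 0.058, limma adjusted p = 0.0702). The remaining edgeR call among falls was the predicted gene Gm37485, singled out after its values were seen, at -1.46 (SE 0.29, limma adjusted p = 0.0690). By the naming rule, which sets aside predicted and clone symbols and low genes, the non-overlapping genes of smallest p that did not pass were the transporter genes Slc17a3, -0.54 (SE 0.12, limma adjusted p = 0.0916), and Slc7a1, -0.36 (SE 0.087, limma adjusted p = 0.129); the phospholipase receptor Pla2r1, -0.31 (SE 0.068, limma adjusted p = 0.106); titin, Ttn, -0.35 (SE 0.077, limma adjusted p = 0.108); Fyco1, an adaptor of autophagic vesicles, -0.27 (SE 0.062, limma adjusted p = 0.122); and the xylosyltransferase Xylt1, -0.31 (SE 0.072, limma adjusted p = 0.122). These 6 and Mbd5 passed DESeq2, and Gm37485 did not (adjusted p = 0.0649).

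Genes that did not overlap between the groups differed in kind by direction, below the level of single calls. Protein-coding genes made up 93.7% of the 1134 with HDAC5DAD above, 61.9% of the 1008 with HDAC5DAD below and 76.4% of all genes tested. Long noncoding genes were 3.17%, 16.4% and 11.2%, and TEC models, predicted transcripts still to be verified and often within introns, 0.441%, 14.7% and 6.01%. These shares were taken over all compared libraries and not within those at or above 1% ribosomal RNA. HDAC5DAD replicates 2 and 3 and no GFP library had under 1%, so a part of ribosomal RNA content in these shares was not tested. Nuclear genes of oxidative phosphorylation were above 0 for 71 of 75, with a median of 0.12, 15 with libraries that did not overlap, and a median from 0.048 to 0.15 over all settings. Over all genes 5.76% did not overlap and 6.68% were higher at an unadjusted p under 0.05. Of the list none of 75 passed limma (28 higher and 0 lower at an unadjusted p under 0.05), 0 passed edgeR and 0 DESeq2; Atp5a1 and Atp5b, subunits of ATP synthase, were 0.15 (SE 0.062, limma adjusted p = 0.376) and 0.14 (SE 0.058, limma adjusted p = 0.377). The 7 mitochondrially encoded genes measured were all below 0, with a median of -0.35, from -0.49 to -0.24 over all settings. Of them none of 7 passed limma (0 higher and 3 lower at an unadjusted p under 0.05), 0 passed edgeR and 0 DESeq2; mt-Co1 was -0.21 (SE 0.19, limma adjusted p = 0.703) and mt-Nd1 -0.41 (SE 0.17, limma adjusted p = 0.406).

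The ribosomal RNA share moved with part of this. Within the libraries at or above 1% ribosomal RNA (GFP replicates 2 to 4, HDAC5DAD replicates 1 and 4, Uninjured replicates 1 and 4), the oxidative phosphorylation median was 0.048 and the mitochondrially encoded median -0.49. There, limma called 12 genes higher and 5 lower, among them mt-Nd1, -0.64 (adjusted p = 0.00318), mt-Nd4, -0.55 (adjusted p = 0.00318), and mt-Cytb, -0.55 (adjusted p = 0.00737), of which the latter pair were singled out after their values were seen. Of the 14 genes called in all libraries, 7 were called there. The other 7 kept their direction and lost the call, among them Irgm2, Lsp1, H2-T23, Gbp7, Sdc4 and Pclo. Within this class HDAC5DAD replicate 1 (5.64%) still lay above every GFP library in ribosomal RNA share. No GFP library had under 1%, so the other class gives no value, and the part of ribosomal RNA content in these results was not tested. Nuclear retained RNA had a median of -0.12, and 0.051 within that class; Malat1 was -0.12 (SE 0.14, limma adjusted p = 0.783) and Xist -0.22 (SE 0.074, limma adjusted p = 0.305), and of Tsix, the antisense partner of Xist, 0.13 (SE 0.26, limma adjusted p = 0.891), reads cannot be told from those of Xist without strand. Cytosolic ribosomal protein genes had a median of 0.072, with Rpl8 at 0.14 (SE 0.053, limma adjusted p = 0.326) and Rps3 at 0.13 (SE 0.058, limma adjusted p = 0.404).

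**Figure D5:**
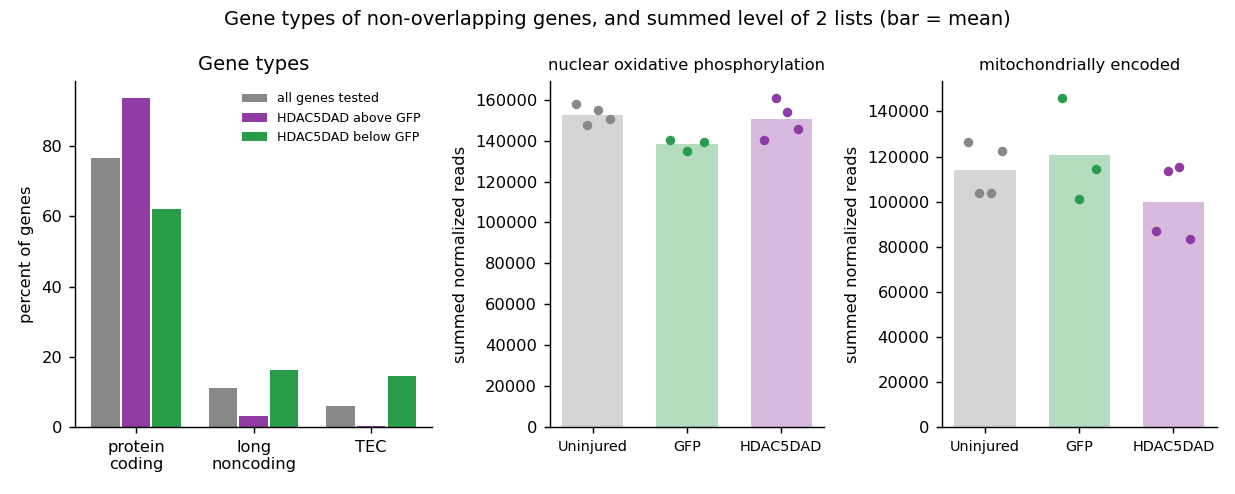
Left, percent of genes that are protein coding, long noncoding or TEC models among all genes tested (grey), genes with every HDAC5DAD library above every GFP library (purple) and genes with every HDAC5DAD library below (green); centre and right, summed normalized reads of the nuclear oxidative phosphorylation and mitochondrially encoded lists per library, with bars at the means. Coding genes are commonest among the purple set, and HDAC5DAD replicates 1 and 4 are lowest on the right.

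The remaining lists held no gene called by limma. In the chaperone, cholesterol, cell cycle, matrix and transport lists 2 to 10 genes per list were higher and 0 to 4 lower at an unadjusted p under 0.05; edgeR called none and DESeq2 called Hspa5. Chaperone genes had a median of 0.12, with libraries that did not overlap, HDAC5DAD above, for 7 of 30 (23.3%), beside 5.76% of all genes; the lectin chaperones Canx and Calr were 0.16 (SE 0.066, limma adjusted p = 0.376) and 0.16 (SE 0.061, limma adjusted p = 0.328). Cholesterol genes had a median of 0.064, with Apoe, the lipid carrier, at 0.31 (SE 0.11, limma adjusted p = 0.340) and Abcg1, an exporter, at 0.064 (SE 0.061, limma adjusted p = 0.707). Cell cycle genes had 0.027, with Bub1b at 0.32 (SE 0.22, limma adjusted p = 0.610) and Rrm1 at 0.13 (SE 0.069, limma adjusted p = 0.458). Matrix genes had -0.052, with Sparc at 0.24 (SE 0.087, limma adjusted p = 0.318) and Col6a1 at 0.12 (SE 0.14, limma adjusted p = 0.787). Tubulin and transport genes had 0.014, with the kinesin Kif1b at -0.086 (SE 0.051, limma adjusted p = 0.505) and dynein heavy chain, Dync1h1, at -0.041 (SE 0.059, limma adjusted p = 0.828). Of the sex-linked genes listed, Xist and Tsix were measured, and Ddx3y, Kdm5d, Eif2s3y and Uty were not analysed here. Among DESeq2 calls outside the lists were the glycolytic genes Tpi1, 0.29 (SE 0.060, limma adjusted p = 0.0702), Pfkl, 0.31 (SE 0.069, limma adjusted p = 0.114), and Pkm, 0.22 (SE 0.058, limma adjusted p = 0.196), singled out after their values were seen and not passing limma.

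The HDAC5AA retinas were set beside these levels on a scale common to 15 libraries. Irgm1 was at 360.1, 798, 329 and 342 normalized reads in HDAC5AA replicates 1 to 4, and Igtp at 312, 883, 309.7 and 354. HDAC5AA replicate 2 lay above the highest HDAC5DAD library for both genes, and the other 3 lay between the highest GFP and the lowest HDAC5DAD library. Irgm2 and Iigp1 went the same way, and other called genes differed. For Tap1, HDAC5AA replicates 1, 3 and 4 (246, 242 and 235) lay within the GFP range (187 to 261). For Irf1, HDAC5AA replicate 3 (318) lay below every GFP library (328 to 400). Hdac5 was at 7474, 8065, 8444 and 6694.5 in HDAC5AA, beside 6566 to 6673 in GFP and 7467 to 8634 in HDAC5DAD. With HDAC5AA in the fit no gene passed limma between HDAC5DAD and GFP, at a smallest adjusted p of 0.154 and with 1287 genes higher and 951 lower at an unadjusted p under 0.05. The SD of log2 values of Irgm1 was 0.61 in HDAC5AA, 0.21 in GFP and 0.26 in HDAC5DAD.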

How the data were processed

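Ribosomal RNA-depleted total RNA was sequenced as single reads, per the labels. STAR, HTSeq, DESeq2 and the build mm10 are named in the submitters' processing notes; annotation and strand mode are not given in the sources used here. The deposited values are a normalized count signal, 1 table per injured group beside the same Uninjured libraries; dividing each library by its own factor returned whole reads (100% of values, within 0.01 read). The GFP (19961 genes) and HDAC5DAD (19956) tables were joined on 19695 gene IDs; all 78780 Uninjured values were equal between them. The smallest gene total was 36 and 41 reads, so genes below had been left out.

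Recovered reads of 11 libraries were scaled by median-of-ratios and fitted with limma 3.58.1 (trend, robust) on log2(value + 1), two-sided, adjusted over all genes with a mean of at least 1. The values were not whole counts as deposited, so count tests were alternatives: edgeR 4.0.16 and DESeq2 1.42.0, in R 4.3.3; the other alternatives are given with their effect below. The scripts were tested on simulated data. Coordinates are from GENCODE mouse release 21 (mm10), which held 19610 of the genes. Replicates of a group differed more than sampling noise (chi-square per gene 7.83 to 81.8). In HDAC5DAD it was 19.2 for replicates 1 and 4, 12.2 for 2 and 3, and 25.6 to 81.8 for the other pairs. In Uninjured these were 7.83, 14.1 and 28.8 to 43.0. In both groups replicates 1 and 4 had at least 1% ribosomal RNA reads and replicates 2 and 3 had less. GFP pairs, all of the class at or above 1%, had 8.23 to 13.3. The cause of this split was not tested. The median 95% half-width of a log2 fold change was 0.23, without adjustment for the number of genes.

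The members, lists and tests were chosen with earlier results of these data known. Named genes were Hdac5, up to 12 largest rises and falls past the threshold without overlap between groups and with a mean of at least 20 in the higher group (predicted and clone symbols set aside), filled to 8 with edgeR calls and then the smallest p, up to 4 called or otherwise the 2 most abundant members per list, and a fixed set of markers; others are said to be chosen after their values were seen. Some genes that this rule names, 1 of them called, are not reported here.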

Additional observations from a re-analysis of the deposited data

Results flagged for a closer look

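In 13 of 268 groups of 4 libraries tested over the named genes, 1 library stood apart from the other 3 by Dixon's criterion at 95%. Chance flags about 1 in 20 groups. Irgm1 was at 798 normalized reads in HDAC5DAD replicate 4, with the other 3 between 551 and 576. Ttn was at 492 normalized reads in HDAC5DAD replicate 4, with the other 3 between 440.3 and 446. Grk1 was at 41123 normalized reads in HDAC5DAD replicate 1, with the other 3 between 38425 and 38878. Kdr was at 5656 normalized reads in HDAC5DAD replicate 2, with the other 3 between 4185 and 4436. Ifit1 was at 716 normalized reads in HDAC5DAD replicate 2, with the other 3 between 192 and 269. Ighg2b was at 2653 normalized reads in HDAC5DAD replicate 3, with the other 3 between 633 and 655. Cryaa was at 66.6 normalized reads in Uninjured replicate 4, with the other 3 between 3.87 and 12.3. Aqp1 was at 3528 normalized reads in Uninjured replicate 4, with the other 3 between 4266 and 4391. Dync1h1 was at 33263 normalized reads in Uninjured replicate 2, with the other 3 between 28349 and 29014. Sprr1a was at 2.43 normalized reads in Uninjured replicate 1, with the other 3 at 0. Psmb9 was at 17.6 normalized reads in Uninjured replicate 2, with the other 3 between 31.0 and 32.8. Gbp3 was at 80.1 normalized reads in Uninjured replicate 1, with the other 3 between 63.4 and 64.3. Jchain was at 166 normalized reads in Uninjured replicate 4, with the other 3 between 120.1 and 127. For Irgm1, leaving out HDAC5DAD replicate 4 gave a log2 fold change of 0.94 (limma adjusted p = 0.00313).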

How the results depend on the processing

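All 14 called genes kept their direction under the 23 alternatives, but the call held in 7 of them for Pclo, 8 for H2-T23, 10 for Sdc4, 14 for Irgm2 and 17 to 21 for the others. The count of rises (13) was 60 with DESeq2, 0 with all 15 libraries and 10 to 15 under the other alternatives that left out no single library; that of falls (1) was 3 with edgeR, 12 with DESeq2, 0 with a pseudocount of 0.1, 2 with a pseudocount of 5, 0 with a mean of at least 10, 0 with all 15 libraries, 5 in libraries with at least 1% ribosomal RNA reads and 0 with that class as covariate. With only the 7 compared libraries, 8 of the 14 genes stayed called. Among those that lost the call there were Igtp (limma adjusted p = 0.111), Tap1 (limma adjusted p = 0.102), Irgm2 (limma adjusted p = 0.245) and H2-T23 (limma adjusted p = 0.126). Leaving out 1 library gave 0 to 27 rises and 0 to 3 falls. Without 1 Uninjured replicate at a time, an alternative chosen after seeing the data, there were 11 to 14 rises. Hdac5 passed with DESeq2 (0.28) and in libraries with at least 1% ribosomal RNA reads (0.36), and was 0.24 to 0.31 when 1 library was left out. The filter on low values removed no gene. The causes were not tested.

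Replicate numbers do not pair the samples by the labels. Deviations of GFP and HDAC5DAD libraries of the same number correlated at 0.21, 0.060 and 0.021 for numbers 2 to 4. For GFP replicates 2 and 3 this was the highest correlation with any HDAC5DAD library, the next being -0.061 and 0.051. GFP replicate 4 correlated best with HDAC5DAD replicate 1 (0.035). With the replicate block the counts were 14 and 0, and Hdac5 was 0.26 (limma adjusted p = 0.168); 11 of the 14 genes were called.

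None of the named genes whose log2 fold change turned sign had passed limma. With edgeR, Atf4 -0.0054, Cryaa -1.65, Stat3 -0.0069. With the replicate block, Atf4 -0.0091, Mapk9 -0.0027, Vtn 0.0029, Stat3 -0.016, Mef2a 0.00058. With the ribosomal RNA class as covariate, Atf4 -0.019, Trpm3 0.039, Alas2 0.056, Mmp12 -0.10, Ifit1 -0.045, Mx2 -0.020. With libraries with at least 1% ribosomal RNA reads, Ccng1 -0.015, Vim -0.031, Glul -0.015, Ighg2c -0.15, Cd59a -0.067, Trpm1 -0.0057, Rlbp1 -0.049, Cryaa -0.36, Alas2 0.059, Malat1 0.10, Tsix -0.018, Rbpms -0.031, Gap43 -0.036, Isg15 -0.10, Ifit1 -0.25. With DESeq2, Cryaa -1.70. With a pseudocount of 5, Cryaa -0.40. With TMM scaling, Stat3 -0.0042. With only the 7 libraries, Stat3 -0.000079. When 1 library was left out, the ranges that crossed 0 were Atf4 -0.083 to 0.15, Mapk9 -0.035 to 0.056, Ighg2c -0.12 to 0.78, Gnat1 -0.071 to 0.0031, Grk1 -0.023 to 0.079, Trpm1 -0.011 to 0.035, Prkca -0.028 to 0.014, Pax6 -0.047 to 0.12, Vtn -0.044 to 0.023, Kdr -0.12 to 0.022, Trpm3 -0.049 to 0.062, Cryaa -2.43 to 2.34, Alas2 -0.082 to 0.092, Rbpms -0.046 to 0.092, Atf3 -0.10 to 0.024, Gap43 -0.0087 to 0.17, Stat3 -0.032 to 0.026, Mef2a -0.077 to 0.045, Mef2c -0.11 to 0.055, Hdac4 -0.0016 to 0.12, Isg15 -0.22 to 0.22, Ifit1 -0.19 to 0.44, Ighg2b -0.15 to 1.09, Mx2 -0.34 to 0.38.

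Over single genes and settings, 2836 values kept direction and side of the threshold, 88 no longer passed, 57 newly passed and 78 turned sign; of list values 2544 held and 78 moved. Depth limits low genes such as Ighg1 in GFP.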
